A study of Mus musculus with 4 samples.

Results

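Mast cell genes were followed through an RNA-seq series on NXD30001, an inhibitor of the chaperone HSP90. The 10 genes were a fixed set of symbols (Kit, Cpa3, Mcpt4, Cma1, Tpsb2, Tpsab1, Fcer1a, Ms4a2, Hdc and Mrgprb1), found by exact match among 35604 gene rows, and all 10 had an estimate marked as usable in both deposited tables. The grafted line was ESC-FC1801, mouse embryonic Schwann cells of FVB/N background that carried Nf2Flox/Flox and had lost Nf2 in culture through Ad-Cre, a Cre adenovirus. All 4 libraries, controls included, came from this line or from its tumours. Tumours had grown in mice given vehicle or 100 mg/kg NXD30001, dosed 3 times a week for 4 weeks. The line grown alone was exposed for 24 h to DMSO or to NXD30001 at 1 µM. Each of the 4 groups was 1 library, so no value has a replicate error, no test was run, and "higher" and "lower" describe these libraries. The culture medium held no serum and contained neuregulin-β1 and forskolin. The sample-type label calls all 4 samples cultured cells, while titles, sources and treatments place 2 of them in allograft tumours; the latter were followed. Whether a tumour library pooled animals, which mice carried the grafts and where the tumours grew are not given in the sources used here.

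Mast cells are tissue-resident white cells that mature under stem cell factor, the ligand of the receptor tyrosine kinase KIT. Antigen that crosslinks IgE on the high-affinity IgE receptor makes them release granules that hold histamine, proteases and the proteoglycan serglycin. In nerve sheath tumours that lack the neurofibromatosis type 1 gene, mast cells are a known part of the stroma; the graft here lacked Nf2. In bulk tumour RNA fewer cells of a type and less RNA per cell cannot be told apart.

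Levels are FPKM, fragments scaled by transcript length and by mapped fragments, as the authors deposited them. Each difference is the log2(FPKM + 1) of the treated library less that of its control, a scale that shrinks changes of low genes. A gene was compared where either library of the table reached 1 FPKM, which gave 15550 genes in tumours. Depth of the treated tumour library was 1.19 times that of its control, read from 56 genes whose error was that of 1 fragment in each library. Sox10, the transcription factor gene of the Schwann lineage, was at 47.0 FPKM in the vehicle tumour and 139.8 FPKM in the treated one, and in culture at 8.42 FPKM with DMSO and 4.40 FPKM with the drug.

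The listed mast cell genes were low in the vehicle tumour, and several of them were higher in the treated one. The levels of the 10 genes summed to 12.5 FPKM with vehicle and 54.0 FPKM with NXD30001. Tpsab1 gave the largest share of that sum in each library, 32.8% with vehicle and 36.2% with NXD30001. Hdc went from 4.43% to 20.1% of the sum. Kit went from 11.3% to 1.33%, a fall in share that also reflects the rise of the sum itself. The listed levels did not move as a block. Hdc, Cma1 and Tpsab1 were called higher in the authors' deposited table, and Tpsb2, Cpa3 and Fcer1a were higher without a call. Mcpt4 was nearly level, and Ms4a2 was listed at 0 in both tumours. Kit was listed lower, but the 95% range of its ratio, explained below, ran from 6.80e-05 to 3785.5 and leaves its direction unknown.

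**Figure D1:**
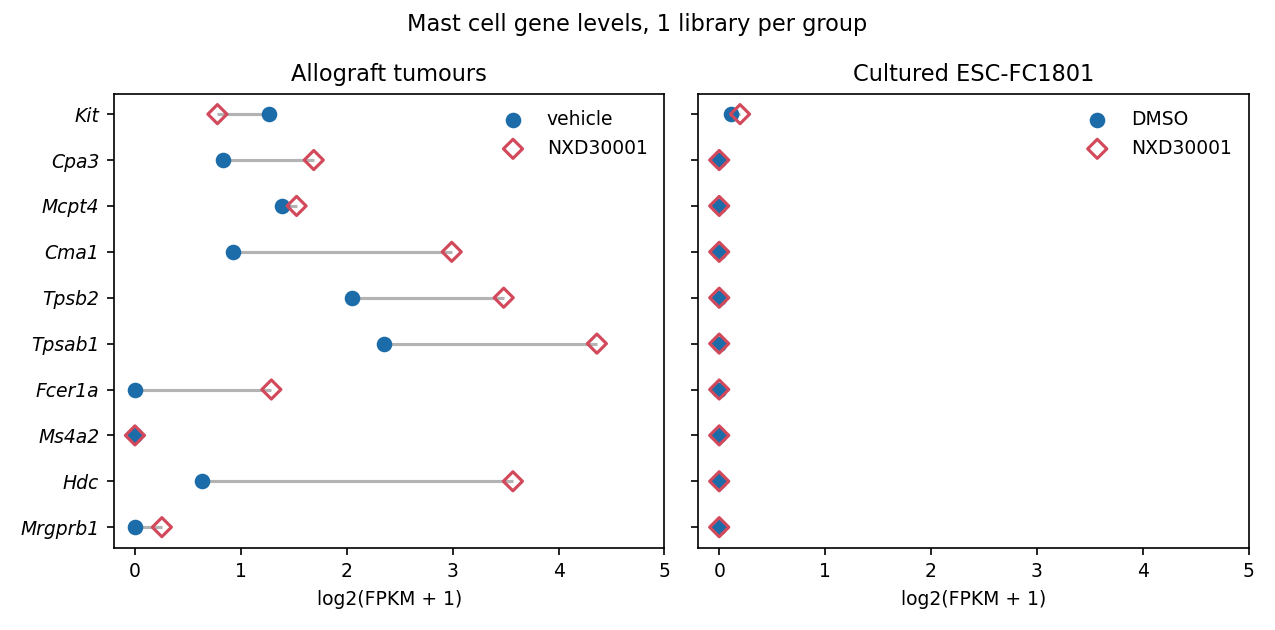
Level of each mast cell gene as log2(FPKM + 1) in the tumour libraries (left: filled circle vehicle, open diamond NXD30001) and in the cultured line (right: filled circle DMSO, open diamond NXD30001), 1 library per point. Hdc, Cma1, Tpsab1 and Tpsb2 lie well apart between the tumours, Mcpt4 and Kit do not, and in culture all but Kit are listed at 0.

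The tryptases are trypsin-like proteases stored in mast cell granules. Tpsab1 (ENSMUSG00000024173, chromosome 17 from 25480190 to 25482507, mm9) was at 4.10 FPKM in the vehicle tumour against 19.6 FPKM in the treated one, a difference of 2.01. The authors' deposited table called this gene, with a q of 0.000677. The error implied by that table, its natural log fold divided by its test statistic, was 0.51 on the log2 scale, which puts the ratio of 4.77 in a 95% range of 2.40 to 9.47. This range belongs to the authors' model of these libraries and covers no spread between animals. Tpsb2 (ENSMUSG00000033825, chromosome 17 from 25503486 to 25505804) was at 3.13 and 10.2 FPKM, a difference of 1.43. Its ratio of 3.25 had a 95% range of 1.32 to 7.97, and the authors' deposited table did not call it (q of 0.221). The level of Tpsab1 was 1.31 times that of Tpsb2 with vehicle and 1.92 times with NXD30001. The longest open reading frames of the pair in GENCODE M21 were 75.9% identical over 816 aligned bases, with a longest identical run of 39 bases. Whether fragments of short reads were split between the copies was not examined.

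The chymases are chymotrypsin-like granule proteases, and the pair of listed ones went apart. Cma1 (ENSMUSG00000022225, chromosome 14 from 56560290 to 56563498) was at 0.898 FPKM in the vehicle tumour against 6.95 FPKM in the treated one, a difference of 2.07. The authors' deposited table called it with a q of 0.0167, and the ratio of 7.74 had a 95% range of 2.51 to 23.8. Mcpt4 (ENSMUSG00000061068, chromosome 14 from 56678584 to 56681147), which lies in the same protease cluster, was nearly level at 1.62 FPKM with vehicle and 1.88 FPKM treated. The difference was 0.14, and the ratio of 1.16 had a 95% range of 0.339 to 3.97. The level of Cma1 was thus 0.554 times that of Mcpt4 in the vehicle tumour and 3.70 times in the treated tumour. Both ranges are wide and they overlap, and the difference between the ratios was not tested. The open reading frames of Cma1 and Mcpt4 were 66.9% identical over 731 aligned bases, while Mcpt4 and its neighbour Mcpt1 were 86.8% identical over 742.

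Cpa3 (ENSMUSG00000001865, chromosome 3 from 20115516 to 20142080) encodes the mast cell carboxypeptidase, stored in the granule beside the chymases. It was at 0.781 FPKM in the vehicle tumour against 2.22 FPKM in the treated one, a difference of 0.86. The ratio of 2.85 had a 95% range of 0.860 to 9.42, which includes 1, and the authors' deposited table did not call it (q of 0.663). The implied errors of Cpa3, Mcpt4, Cma1 and Tpsb2 were as large as counting error alone would be with 3.47, 4.37, 3.36 and 5.99 fragments in the vehicle library. For Tpsab1 and Hdc the same reading gave 9.58 and 3.57 fragments with vehicle, and 54.6 and 83.6 with NXD30001. The vehicle levels thus rest on few fragments.

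**Figure D2:**
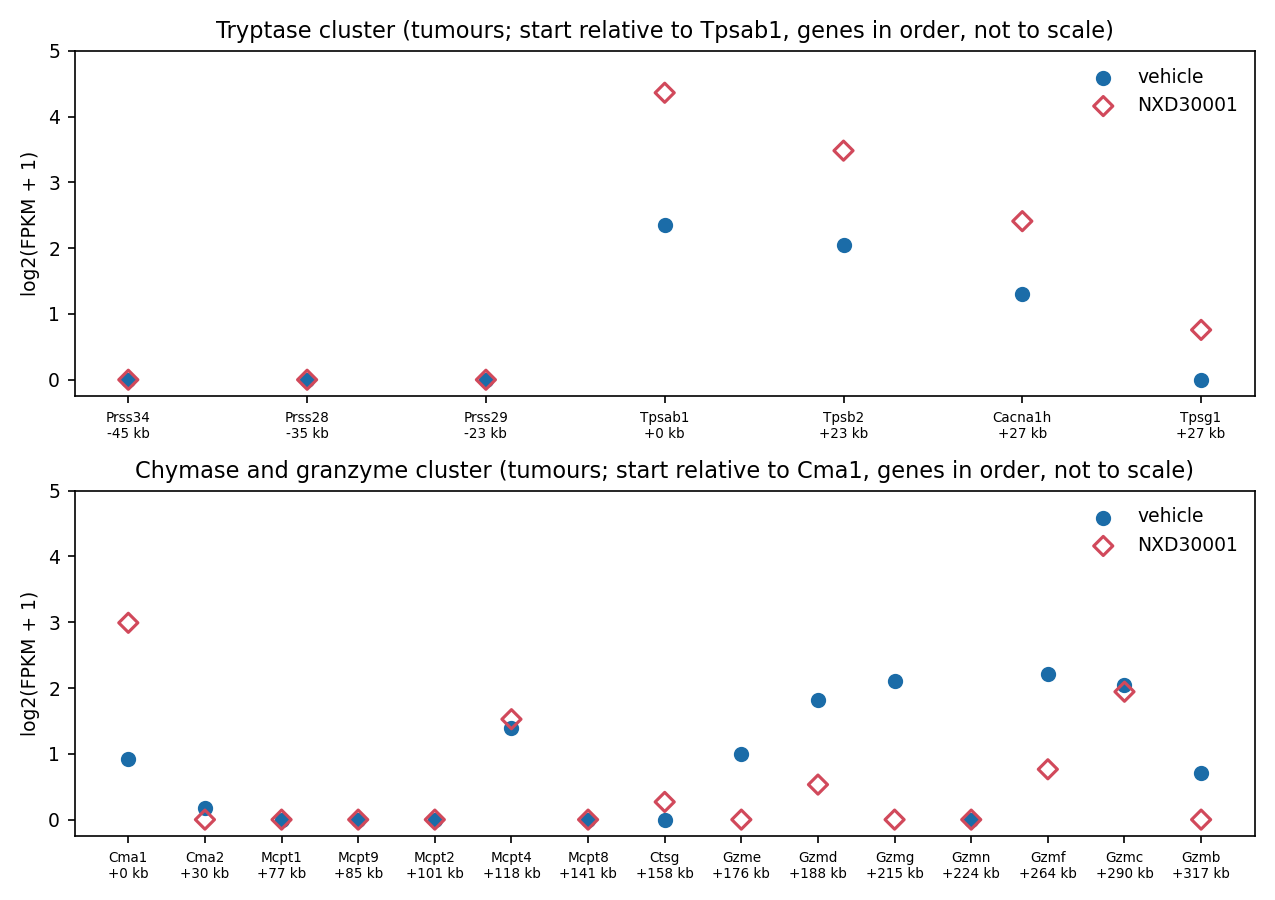
Levels as log2(FPKM + 1) of the genes of the tryptase cluster (top) and of the chymase and granzyme cluster (bottom) in the vehicle (filled circle) and treated (open diamond) tumours, in chromosomal order with the distance of each start from Tpsab1 or Cma1; clone and small RNA rows are left out. Tpsab1 and Tpsb2 stand together above 0, while Mcpt1, Mcpt2, Mcpt8 and Mcpt9 between and beside Cma1 and Mcpt4 are listed at 0 in both tumours.

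Of 10 other listed protease genes with a row, 5 were listed at 0 in both tumours. Among these, Mcpt1, Mcpt2 and Mcpt9, known from mucosal or other mast cell subsets, were at 0 in both tumours. Mcpt8 and Prss34, proteases of basophils, were also at 0 in both. Tpsg1, a membrane-anchored tryptase gene at a locus given for another row too, was at 0 with vehicle and 0.691 FPKM with NXD30001. Ctsg, cathepsin G, was at 0 and 0.205 FPKM, and Cma2 at 0.132 and 0 FPKM. The remaining member of that list at 1 FPKM or more was Ctsc, a protease that activates granule proteases and is made by many cells, at 142 and 84.3 FPKM.

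Upstream sequences of 5 members (Cpa3, Mcpt4, Cma1, Hdc and the receptor gene Fcer1a) are shown, some with and some without a large difference. RefSeq promoters (build GRCm38.p6) matched 8 of the 10 symbols, and for each the 250 bases before the start were searched on both strands. The tryptase genes Tpsab1 and Tpsb2, both at least 2-fold higher and the former called, had no promoter entry and are missing here. The first motif, bound by GATA factors, was AGATAA with its variant form TGATAA. The next was the E-box CATGTG of the MITF type, and after it came the palindromic E-box CACGTG. The last was the TATA box TATAAA. Words of the GATA type were found in 4 of the 8 (Fcer1a, Cpa3, Mcpt4 and Ms4a2) and in 17.0% of 27025 promoters. The MITF-type E-box was found in 1 of the 8 (Fcer1a) and in 12.2% of all, and the palindromic one in 0 of the 8 and 6.05% of all. The TATA word was found in 3 of the 8 (Fcer1a, Cpa3 and Mcpt4) and in 13.0% of all. Shown 5′ to 3′ on the gene's strand, which is minus for all 5, are Cpa3 (chr3:20242182-20242431), Mcpt4 (chr14:56062311-56062560), Fcer1a (chr1:173227230-173227479), Cma1 (chr14:55944676-55944925) and Hdc (chr2:126618679-126618928), with GATA and E-box words in capitals on whichever strand they were found.
Cpa3: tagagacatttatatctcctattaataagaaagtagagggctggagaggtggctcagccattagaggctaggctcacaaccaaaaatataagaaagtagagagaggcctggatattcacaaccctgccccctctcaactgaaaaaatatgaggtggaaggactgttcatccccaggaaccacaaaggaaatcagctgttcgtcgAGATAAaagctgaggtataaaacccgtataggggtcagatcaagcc
Mcpt4: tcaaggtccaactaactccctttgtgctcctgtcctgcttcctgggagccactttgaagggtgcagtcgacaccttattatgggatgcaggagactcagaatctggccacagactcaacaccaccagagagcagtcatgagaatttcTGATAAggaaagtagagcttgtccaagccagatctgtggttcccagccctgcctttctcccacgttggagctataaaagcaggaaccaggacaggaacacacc
Fcer1a: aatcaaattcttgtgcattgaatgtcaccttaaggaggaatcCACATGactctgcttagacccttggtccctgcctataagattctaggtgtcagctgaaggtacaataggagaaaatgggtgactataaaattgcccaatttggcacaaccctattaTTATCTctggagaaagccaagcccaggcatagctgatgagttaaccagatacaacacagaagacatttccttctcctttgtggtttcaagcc
Cma1: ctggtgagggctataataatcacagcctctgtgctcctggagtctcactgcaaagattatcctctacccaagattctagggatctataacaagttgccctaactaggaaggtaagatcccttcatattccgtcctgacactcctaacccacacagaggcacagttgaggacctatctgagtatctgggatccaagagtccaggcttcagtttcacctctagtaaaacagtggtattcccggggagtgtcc
Hdc: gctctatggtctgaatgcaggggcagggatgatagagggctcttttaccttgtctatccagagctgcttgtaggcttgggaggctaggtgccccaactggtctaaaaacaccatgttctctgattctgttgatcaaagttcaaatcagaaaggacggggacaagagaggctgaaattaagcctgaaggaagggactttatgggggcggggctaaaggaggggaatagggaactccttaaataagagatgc
Counted from the start, the GATA word of Cpa3 begins at position -46 and that of Mcpt4 at position -103. In Cma1 and Hdc, both called higher in the authors' deposited table, none of the GATA or E-box words was in this window. A word is a match of letters and not a site of binding.

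Hdc showed the largest difference of the set on the log2(FPKM + 1) scale; with a pseudocount of 0.01 FPKM its 4.27 lay below the 7.18 of Fcer1a and the 4.34 of Mrgprb1, both at 0 with vehicle. It encodes histidine decarboxylase, which makes histamine in mast cells and basophils and, at lower levels, in other myeloid cells such as neutrophils. Hdc (ENSMUSG00000027360, chromosome 2 from 126419403 to 126445035) was at 0.554 FPKM in the vehicle tumour against 10.9 FPKM in the treated one, a difference of 2.93. The authors' deposited table called it with a q of 4.55e-06, and the ratio of 19.6 had a 95% range of 6.80 to 56.6. Of the compared tumour genes, 99.2% had a smaller difference. Its level was 0.710 times that of Cpa3 with vehicle and 4.89 times with NXD30001. Neutrophil markers moved beside it, with S100a8 going from 2.18 to 21.9 FPKM and Retnlg from 0.539 to 4.06 FPKM, neither called in the authors' deposited table. Of the 10 neutrophil markers, 3 were at 0 in both tumours (Ly6g, Ltf and Camp) and 5 were at 1 FPKM or more. Of these 5, 3 were higher and 2 lower, with a median difference of 1.70. Mmp9 was the 1 called lower, beside 2.45% of all compared genes. The list summed to 102 FPKM with vehicle and 98.5 FPKM with NXD30001, of which Mmp9 alone gave 90.2 and 45.8 FPKM. S100a9 was at 6.96 and 24.8 FPKM, without a call. The part of neutrophils in the Hdc level was not tested.

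The receptor genes were at 1.44 FPKM or less in each tumour library. Kit (ENSMUSG00000005672, chromosome 5 from 75970941 to 76052747), the stem cell factor receptor, was at 1.41 FPKM in the vehicle tumour against 0.716 FPKM in the treated one, a difference of -0.49. The implied error was 6.56 on the log2 scale, so this estimate gives no direction. Fcer1a (ENSMUSG00000005339, chromosome 1 from 175151415 to 175157345), the IgE-binding alpha subunit, was listed at 0 with vehicle and at 1.44 FPKM with NXD30001, without a call in the authors' deposited table. Ms4a2 (ENSMUSG00000024680, chromosome 19 from 11691447 to 11698209), the beta subunit of the same receptor, was listed at 0 in both. Mrgprb1 (ENSMUSG00000070547, chromosome 7 from 55702480 to 55703532), of the Mas-related receptor family, was listed at 0 and 0.193 FPKM. Where a gene was at 0 in the vehicle library, the deposited statistic could be read back from its unadjusted p, and its square lay within 0.02 of a whole number in 48.2% of 1224 such genes, as a count of fragments would. Read this way, Mrgprb1 rests on 1 fragment and Fcer1a on 4.94. Neither level allows a fold, since the vehicle library is at 0.

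**Figure D3:**
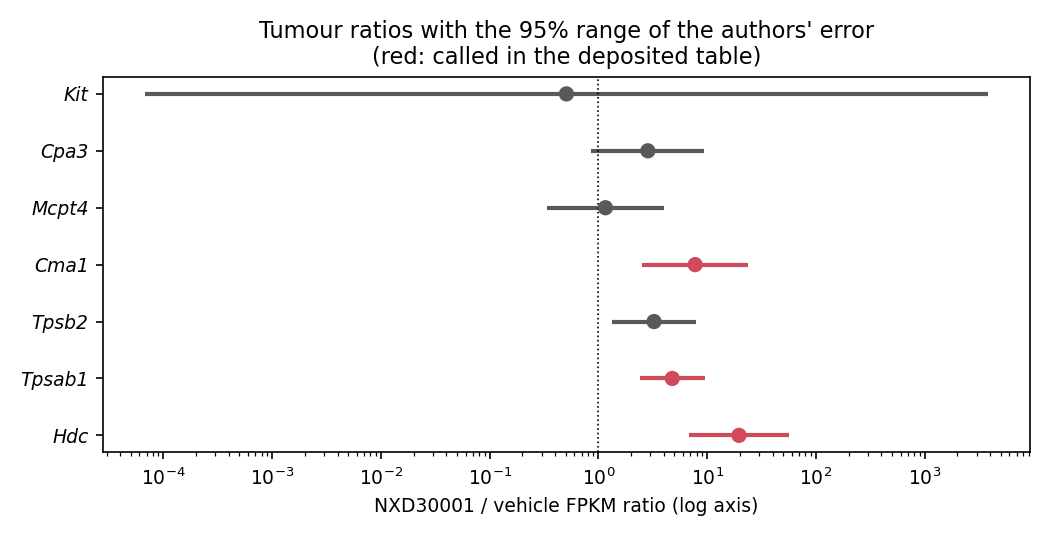
Ratio of treated to vehicle tumour level on a log axis for the 7 mast cell genes above 0 in both tumour libraries, with the 95% range of the authors' implied error. The ranges of Hdc, Cma1, Tpsab1 and Tpsb2 lie above 1, those of Cpa3 and Mcpt4 include 1, and that of Kit spans from 6.80e-05 to 3785.5.

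On the log2(FPKM + 1) scale 5 of the 10 genes were at least 2-fold higher in the treated tumour (Hdc, Cma1, Tpsab1, Tpsb2 and Fcer1a) and 0 were 2-fold lower. Cpa3, with a ratio of 2.85 between its FPKM levels, fell short on that scale at 0.86; with a pseudocount of 0.1 FPKM the count was 6. Among all compared genes 7.32% were higher by that fold and 6.93% lower. Low genes exceeded 2-fold more often: of 3979 compared genes at 5 FPKM or less with vehicle, 20.7% were at least 2-fold higher. The 8 mast cell genes that were compared lie among these 3979. The authors' deposited table called 3 of the 10 higher and 0 lower, where it called 3.14% of compared genes higher and 2.45% lower, and 5.05% of those at 5 FPKM or less with vehicle higher. The minimum of 1 FPKM was met by 8 of the 10, Fcer1a and Cpa3 and Cma1 and Hdc only through the treated library. The 5 genes past 2-fold and the 3 called are all among the compared 8. The median difference was 1.36 over these 8 and 1.07 over all 10, beside -0.03 over all compared genes and 0.18 over those at 5 FPKM or less with vehicle. The genes were proposed with these results in view, so the counts describe the libraries and support nothing further.

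The cultured line served as the check of the graft itself. In DMSO and in NXD30001, 9 of the 10 genes were listed at 0, and Kit was at 0.0820 and 0.146 FPKM. No member reached 1 FPKM there, so 0 of the 10 entered the culture comparison, in which 12.6% of 12676 genes were higher by 2-fold or more and 24.8% lower. The tables were made separately, so these levels are not set against those of tumours. Genes like the members in this respect were frequent in tumours: 1576 compared genes were at 0 in both culture libraries. In the treated tumour 20.4% of them were higher by 2-fold or more and 25.2% lower, with a median difference of -0.19.

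Genes that supply mast cells were followed next. Kitl, which encodes the KIT ligand stem cell factor, was at 24.4 FPKM in the vehicle tumour against 34.6 FPKM in the treated one, without a call. In culture it was at 49.5 and 164 FPKM, a difference of 1.71 that the authors' deposited table called. Of 14 listed ligands and growth factors, 6 were compared in tumours. Of these 0 were called higher and 1 lower, beside 3.14% and 2.45% of all compared genes. The gene called lower was Nrg1, a Schwann cell growth factor, at 11.8 and 3.35 FPKM. Tgfb1, a cytokine gene of many cell types, was at 42.2 and 32.8 FPKM. Il3, Il9, Il10 and Csf2, cytokines of T cells and others, were at 0 in both tumours.

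In the lists of other mast cell receptors and of signalling below the IgE receptor, 0 genes were called higher in the authors' deposited table. Beside this, 3.14% of all compared genes were called higher and 2.45% lower, so 0 in lists this short is near that share. Of 23 listed receptors 12 were compared, with 0 called higher, 1 called lower and a median of -0.27. The called gene was Il1rl1, the receptor of interleukin-33, at 19.8 and 5.26 FPKM, a difference of -1.73, and the authors' deposited table implied an error of 0.33. Itgb7, an integrin subunit also made by other white cells, was at 52.4 and 25.5 FPKM, Cd33 at 14.9 and 9.32 FPKM and Il18rap at 6.47 and 3.92 FPKM. Mrgprb2, the mouse mast cell receptor for basic secretagogues, was at 0 and 0.349 FPKM. In the IgE receptor signalling list 16 of 20 genes were compared, 0 were called and the median was -0.13. Lat, an adaptor of T cells and mast cells, was at 4.34 and 0.158 FPKM, with an implied error of 1.51. Syk, the kinase that binds the receptor's gamma chain, was at 9.03 and 4.84 FPKM, the phosphatase gene Inpp5d at 16.7 and 10.2 FPKM and the adaptor gene Grb2, at a locus shared with another row, at 80.5 and 51.4 FPKM. Fcer1g, the gamma chain that macrophages also make, was at 72.9 and 72.7 FPKM; it was named after its values were seen, as the remaining subunit of the receptor.

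No gene of the granule matrix, mediator, cytokine, transcription factor or KIT signalling lists was called higher in the authors' deposited table. Over all compared genes 3.14% were called higher and 2.45% lower, so 0 in lists this short is near that share. The granule list had a median of -0.005 over 8 compared genes, with 0 called. Srgn, serglycin, which other white cells and endothelium make as well, was at 60.5 and 88.9 FPKM, a difference of 0.55. Ndst2, a heparin-modifying enzyme, was at 16.8 and 16.0 FPKM, Ctsd, a lysosomal protease at a shared locus, at 650.0 and 582 FPKM and Vamp8, a granule fusion protein, at 67.5 and 64.4 FPKM. Of 15 histamine and eicosanoid genes 8 were compared, 0 were called and the median was -0.21. Ptgds was listed at 0 with vehicle and 3.62 FPKM with NXD30001, Ptgs1, cyclooxygenase 1, was at 22.7 and 12.2 FPKM, Pla2g4a at 54.9 and 31.4 FPKM and Ltc4s at 15.01 and 10.8 FPKM, the last pair at shared loci. Among transcription factors 12 of 17 were compared, 0 were called higher, 2 were called lower and the median was -0.43. These were Lmo2 at 18.5 and 3.90 FPKM, at a shared locus, and Sfpi1, which encodes the myeloid factor PU.1, at 40.6 and 12.8 FPKM. Mitf, a master factor of mast cells and melanocytes at a shared locus, was at 7.37 and 3.46 FPKM and Tal1 at 2.19 and 0.924 FPKM, neither called. Mast cell cytokine genes (10 of 14 compared, 0 called, median -0.21) included Ccl3 at 3.49 and 0 FPKM, Ccl7 at 16.7 and 6.86 FPKM, Osm at 0.565 and 2.42 FPKM and Il1b, at a shared locus, at 1.02 and 0 FPKM. Of 16 genes of KIT signalling 15 were compared, 0 were called and the median was -0.09, with Pik3cd at 10.3 and 4.07 FPKM (implied error 11.1), Stat5b at 5.91 and 12.2 FPKM, Ptpn11 at 92.1 and 57.5 FPKM and Gab1 at 10.2 and 16.5 FPKM.

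**Figure D4:**
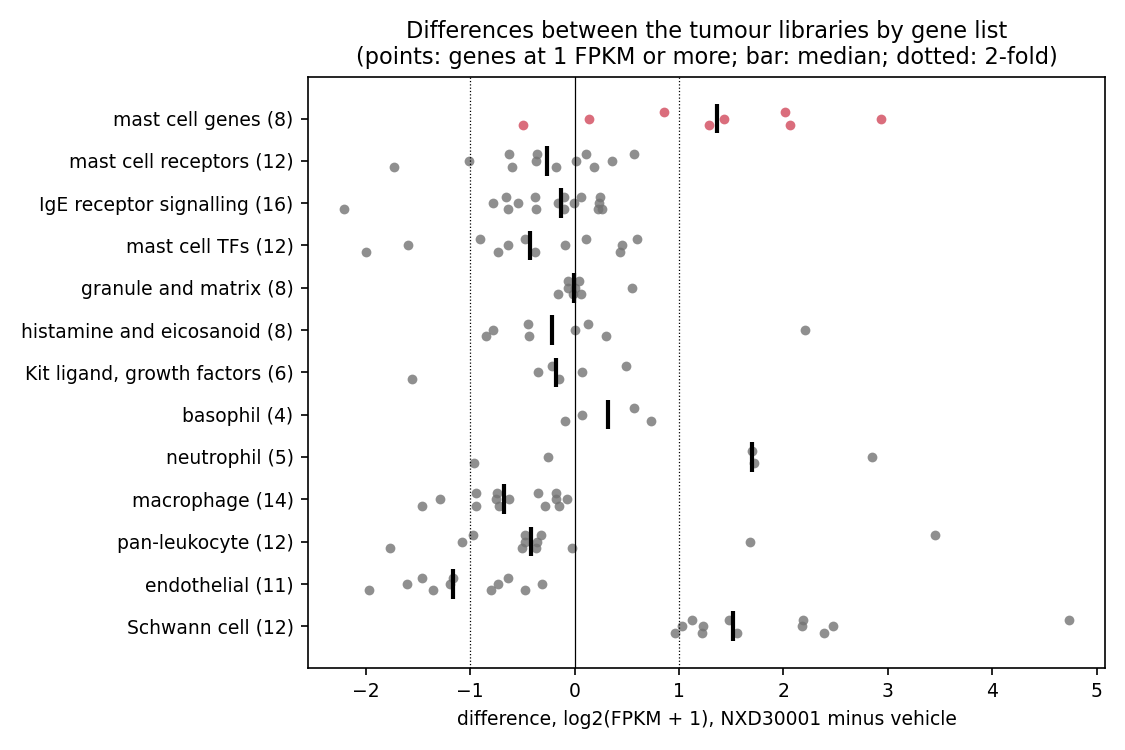
Difference between the tumour libraries on the log2(FPKM + 1) scale for each compared gene (points) of the mast cell set, of lists around it and of other cell types, with the number of genes in parentheses, the median as a bar and dotted lines at 2-fold. The mast cell set has a median of 1.36, and the neutrophil list of 5 genes has a higher median of 1.70. The lists of receptors, IgE receptor signalling genes and transcription factors drawn here have medians between -0.43 and -0.13. Schwann cell genes have a median of 1.52 and endothelial genes of -1.17.

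Other cell types were read from their own markers in the same tumours. Over all compared genes the authors' deposited table called 3.14% higher and 2.45% lower, the shares to set beside the counts below. Pan-leukocyte genes (12 compared, 1 called higher, 2 called lower) had a median of -0.42, and their levels summed to 661 FPKM with vehicle and 443 FPKM with NXD30001. In this list Ptprc, CD45, was at 17.8 and 4.53 FPKM, with no call and an implied error of 1.19, and Cd52, at a shared locus, went the other way at 0.395 and 14.2 FPKM, with a call in the authors' deposited table. All 14 compared macrophage genes were lower, with a median of -0.68. Endothelial genes were lower (11 of 11, 4 called, median -1.17), as were 4 of 5 erythroid genes, all 4 called, whose list summed to 315 and 5.10 FPKM. Schwann cell genes were higher (12 of 12, 10 called, median 1.52), summing to 252 and 789.7 FPKM, and the part of these shifts in the mast cell result was not tested.

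Cell types that share single members had few defining markers. Of 9 basophil genes, Mcpt8, Prss34 and Ms4a3 were at 0 in both tumours, Cd200r3 was at 0 and 0.253 FPKM, and the list summed to 26.2 and 37.6 FPKM, with Itga2 at 2.49 and 4.79 FPKM and Il3ra at 16.1 and 24.3 FPKM. Eosinophil genes (11 listed) were at 0 in both tumours for 8, Prg2 and Epx included, and summed to 0.194 and 0.379 FPKM. Melanocytes also use Kit; of 9 measured melanocyte genes 6 were at 0 in both tumours, Tyr, Tyrp1, Dct and Mlana included, and the list summed to 0.965 and 0.573 FPKM. Of the 10 progenitor and megakaryocyte genes, 5 were at 1 FPKM or more, and Flt3, a receptor of early progenitors, was at 0.169 and 0 FPKM. The list's leading genes Cd34, also an endothelial gene and at a shared locus, and Pf4 went from 326 to 96.7 FPKM and from 55.6 to 21.5 FPKM.

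By Euclidean distance over the 4 libraries on the log2(FPKM + 1) scale, the 6 named genes nearest to the median profile of the 10 were Tnfrsf4 at a distance of 0.071, Klra17 at 0.071, Zfp850 at 0.117, Enkur at 0.126, Cml1 at 0.161 and Sec31b at 0.169. Tnfrsf4 went from 0.925 FPKM with vehicle to 2.10 FPKM in the treated tumour and was at 0 in culture. All 6 were at 0.779 to 0.925 FPKM with vehicle and uncalled in the authors' deposited table, and the members' own distances from this profile ran from 0.0932 for Cpa3 to 3.12 for Tpsab1. A likeness over 4 libraries, of which the 2 cultures are near 0, tells little apart.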

How the data were processed

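RNA-seq of 2 tumour and 2 culture libraries, 1 per group, was read from 2 tables that the authors made separately, so levels are compared within a table. Reads were processed with CASAVA, TopHat 1.2.0, Cufflinks 1.0.2 and Cuffdiff on mm9, per the submitters' processing notes; whether counting used strand is not stated there. The authors deposited FPKM levels, a score for the natural log fold and test statistic, a p-value and a q value per gene, and the call; the q reaches above 1 and is held as a score. The deposited fold ratio was turned into an implied error by dividing the log fold by the statistic. The tables hold no count, so intervals are the authors' error only. Fragment equivalents assume counting error alone. Deposited starts count from 0 and are printed plus 1.

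Differences used a pseudocount of 1 FPKM and genes with a usable estimate at 1 FPKM or more in either library, with pandas 2.3.3 and numpy 2.4.6. Scripts were tested on simulated data. The members, the 28 gene lists and the alternatives were chosen with earlier results of these data known. Named genes were the 10 members, up to 4 of the largest differences per pathway list, up to 2 per cell type list with defining markers near 0, and the 6 nearest profiles; Sox10 was added as a lineage check, and 2 genes that this rule selects are not reported here. Fcer1g, Mrgprb2, Il33, the granzymes, and the protease, cytokine and neutrophil genes named at or near 0 fall outside this rule and were named after their values were seen. The same holds for S100a9 and Mmp9.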

Additional observations from a re-analysis of the deposited data

Results flagged for a closer look

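Of the genes named here that reached 1 FPKM in both tables, 8 had differences of opposite sign in the tumours and in the cultured line. Kit also did, as a member, though it was below 1 FPKM in culture. With 1 library per group no such difference between the settings was tested. Kit, the stem cell factor receptor, was -0.49 in tumours and 0.083 in culture. Its implied error in tumours was 6.56 on the log2 scale, so its sign there gives no direction. Il33, the ligand of the receptor encoded by Il1rl1, was 0.0734 in tumours and -0.91 in culture. The lysosomal protease genes were lower in tumours and higher in culture, Ctsc by -0.75 and 1.31 and Ctsd by -0.16 and 1.02. Vamp8 was -0.0672 in tumours and 1.29 in culture, and Grb2 was -0.64 and 0.54. Ptgds was 2.21 in tumours and -0.32 in culture. Itga2 was 0.73 in tumours and -2.48 in culture, where the authors' deposited table called it. Sox10 was 1.55 in tumours, where it was called, and -0.80 in culture.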

How the results depend on the processing

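Over 10 alternatives the number of mast cell genes at least 2-fold higher ran from 4 to 6 and their median difference from 1.07 to 2.04. The count of 4 and the median of 2.04 came from a minimum of 5 FPKM, where only 4 members were compared. These 4 reached it only through the treated library, so a higher treated level was fixed by that filter. With a minimum of 5 FPKM, which tests fewer genes, 734 genes in all were at least 2-fold higher and 675 lower. A smaller pseudocount enlarged differences in both directions: with 0.01 FPKM they were 2.94 for Cma1, 4.27 for Hdc, 7.18 for Fcer1a, 4.34 for Mrgprb1 and -0.97 for Kit, and 1513 genes in all were at least 2-fold higher and 1501 lower. Centring moved every difference by 0.03. The difference of each member was run under 4 of the settings, and no sign reversed. This tells nothing about direction, since a pseudocount cannot change a sign. Centring and the rescaling of the treated library, by a factor of 1.01, were small. No paired analysis was possible because each group held 1 library. No replicate could be left out. Vehicle levels of 0.554 to 4.10 FPKM for the 3 called genes limit the precision of their ratios.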

Other observations

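Granzyme genes that share the chymase cluster went the other way; they were chosen after their values were seen. In the vehicle and treated tumours Gzmd was at 2.53 and 0.446 FPKM, Gzmf at 3.62 and 0.699 FPKM and Gzmg at 3.33 and 0 FPKM. Gzme was at 0.998 and 0 FPKM, and Gzmc was nearly level at 3.12 and 2.85 FPKM. Gzmb, a protease of cytotoxic lymphocytes that mast cells also make, was at 0.635 and 0 FPKM. None of the 6 was called in the authors' deposited table, and several have near-identical copies, so their separate levels are uncertain.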
